A study of Mus musculus with 6 samples.

Results

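The 10 genes studied here, known from macrophages and microglia, were measured in 3 mouse cell populations. They were Csf1r, Cd68, C1qa, C1qb, C1qc, Tyrobp, Fcer1g, Ctss, Laptm5 and Lyz2. Every probe set (the group of short probes that reports one transcript) whose single annotated gene symbol was one of these 10 was taken, on both array types. That gave 18 probe sets, 16 on chip A and 2 on chip B, of the 35041 probe sets with 1 symbol, which stand for 18193 genes. Of the 10 members, 7 had a single probe set, Csf1r and C1qb had 3 each, and Laptm5 had 5.

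The populations were sorted mature olfactory sensory neurons (OSNs), the residual epithelium left once those neurons had been taken out, and brain from which the olfactory bulbs had been left out. All came from OMP-GFP mice, in which GFP stands in the place of the Omp coding region, and the brain therefore came from the same engineered line. The sources used here do not give age, sex, strain background, zygosity of the GFP allele or whether animals were pooled. RNA came from about 500000 sorted cells and about 2500000 residual cells, per the labels. With 1 array of chip A and 1 of chip B per population there are no replicates, so differences are given without a test or p-value.

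Macrophages are the resident phagocytes of tissues, and microglia are those of the brain. Their survival depends on signalling through the CSF1 receptor, and their identity on myeloid transcription factors such as PU.1 (Spi1). In the olfactory epithelium, where neurons die and are replaced throughout life, macrophages take up dying neurons. In the brain, microglia produce the complement protein C1q, which tags synapses and debris for removal.

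Omp, the gene that marks the sorted neurons, had a signal of 11057.4 in sorted OSNs, 248.8 in the residual epithelium and 201.4 in brain by its brightest probe set. This checks the sort and is not a result. The other Omp probe set (1422199_at) was low throughout, with 17.5, 28 and 19.4 in the same order. Signals are intensities on a linear scale. Signals under the lower quartile of a chip's arrays (70.3 on chip A, 79.7 on chip B), here called the floor, were raised to it before log2 ratios were taken. Only genes with at least 1 of the compared signals at or above the median of the chip (222 on chip A, 243.7 on chip B) were counted. A ratio whose lower signal lay at the floor is a bound, given as "at least". Probe sets present on both chips showed how far a log2 ratio moved between chips, with an SD of 0.25 for OSNs over residual epithelium, 0.29 for OSNs over brain and 0.34 for residual epithelium over brain (99 probe sets each). On average these shared probe sets read 0.23 higher on chip A than on chip B for OSNs over residual epithelium, and lower on chip A by the values -0.19 for OSNs over brain and -0.42 for residual epithelium over brain. The SD between separate probe sets for 1 gene was 0.62 for OSNs over residual epithelium, 0.79 for OSNs over brain and 0.78 for residual epithelium over brain. Neither SD stands for the spread between animals. In bulk RNA, fewer cells of a type and less RNA per cell cannot be told apart.

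All 10 members had their lowest signal in OSNs, and 9 of 10 had their highest in residual epithelium, judged by each gene's brightest probe set. C1qc was the exception, with 94.8 in sorted OSNs, 650.3 in the residual epithelium and 692.1 in brain. In OSNs over residual epithelium all 10 were counted and all 10 were at least 2-fold lower, while 18.7% of all 12254 counted genes were that much lower and 12.8% that much higher. Their median log2 ratio was -3.58, beside -0.05 over all counted genes. In OSNs over brain 9 were counted and 7 were at least 2-fold lower (21.1% of 12380 counted genes), with a median of -2.29 beside 0.05 over all counted genes. Cd68 was not counted there because its brain signal of 195.8 missed the chip median. In residual epithelium over brain all 10 were counted, 5 were at least 2-fold higher (22.5% of 12916 counted genes), none was at least 2-fold lower (18.9%), and the median was 1.15 beside 0.12. Only 4 members (Csf1r, Ctss, Laptm5 and Lyz2) reached the chip median in OSNs themselves, so for the other 6 the sign of the OSN ratios follows from the filter while the size does not.

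**Figure D1:**
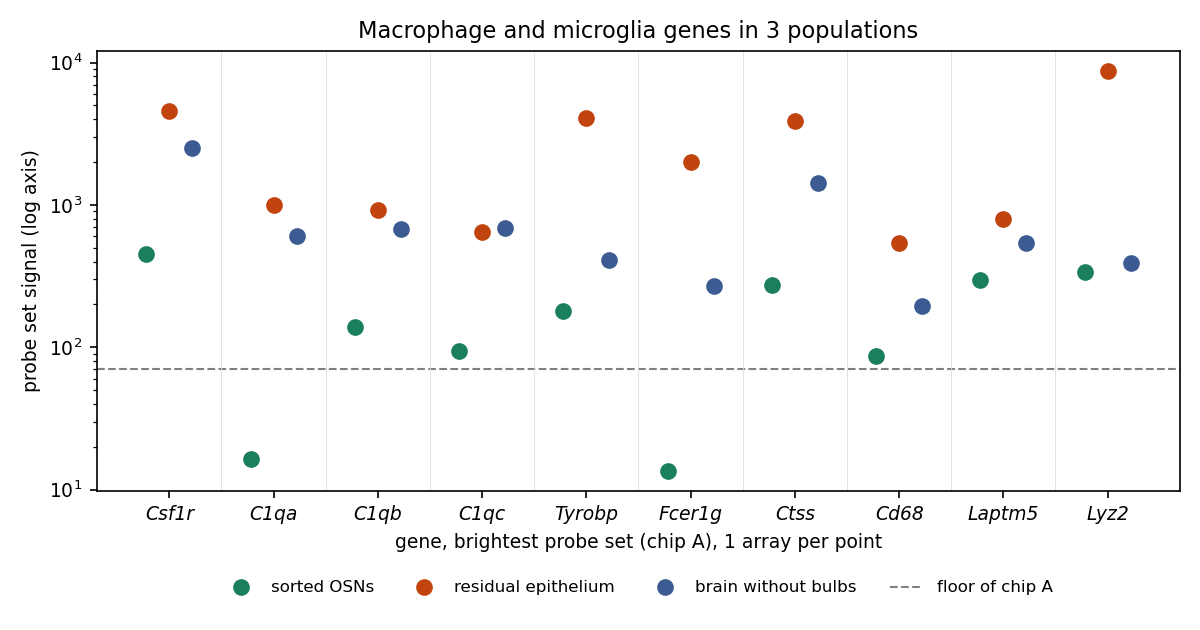
Probe set signal (log axis) of the 10 members in sorted OSNs, residual epithelium and brain without bulbs, 1 array per point, brightest probe set of each gene on chip A. The dashed line is the floor of 70.3. OSN points are the lowest for every gene, and brain points lie near the residual ones for Csf1r and the C1q genes and far below them for Tyrobp, Fcer1g and Lyz2.

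Csf1r encodes the receptor for the growth factors CSF1 and IL-34, on which macrophages and microglia depend. Its brightest probe set had a signal of 451.2 in sorted OSNs, 4582.5 in the residual epithelium and 2502.6 in brain. It was 10.2-fold lower in OSNs than in residual epithelium and 5.55-fold lower than in brain, and 1.83-fold higher in residual epithelium than in brain. The 2 other Csf1r probe sets kept the order but not the size. One (1419873_s_at) had 201.0 in sorted OSNs, 1303.4 in the residual epithelium and 770.3 in brain, and the other (1423593_a_at) had 291.2, 893.5 and 840.8 in the same order. The log2 ratio of OSNs over residual epithelium thus ranged from -3.34 to -1.62 across the probe sets of this one gene, and that of residual epithelium over brain from 0.09 to 0.87.

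In the list of CSF1 receptor ligands, related cytokine receptors and myeloid transcription factors, 8 of 12 counted genes were lower by 2-fold or more in OSNs than in residual epithelium and 1 was higher (median -1.93). In residual epithelium over brain 7 of 12 were higher and 1 was lower (median 2.31). Only 3 of the 12 in the first comparison reached the chip median in both populations, and 5 of the 12 in the second. For the others the filter fixed the sign. Ikzf1, a lymphoid and myeloid transcription factor, was at least 57.4-fold lower in OSNs than in residual epithelium by its brightest probe set, with log2 ratios of -5.84 and -2.39 for its 2 probe sets. Csf2rb, the common beta chain of cytokine receptors, was 24.4-fold lower, and Maf, a transcription factor of tissue macrophages among other cells, 13.1-fold. At the other end Runx1 was 2.11-fold higher in OSNs by its brightest probe set, but its probe sets ranged from -3.05 to 1.08 in log2 ratio. Irf5 stood at 0.38, with probe sets from -0.61 to 0.38, and Cebpb at -0.25, with probe sets from -0.46 to -0.25. The ligand genes had their highest signals in brain: Il34 had 74.1 in sorted OSNs, 72.6 in the residual epithelium and 249.0 in brain, and Csf1 had 177.0, 357.0 and 521.3 in the same order. Residual epithelium over brain was -1.78 in log2 for Il34 and -0.55 for Csf1, against 0.87 for the receptor gene.

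C1qa, C1qb and C1qc encode the chains of C1q, the recognition protein that starts the classical complement pathway. They lie next to each other on mouse chromosome 4 with 0 other genes between them in the RefSeq table. C1qa had a signal of 16.5 in sorted OSNs, which is under the floor, 1004.0 in the residual epithelium and 609.0 in brain. It was at least 14.3-fold lower in OSNs than in residual epithelium and at least 8.66-fold lower than in brain. The brightest C1qb probe set (1417063_at) had 138.1 in sorted OSNs, 914.5 in the residual epithelium and 675.5 in brain. C1qb was 6.62-fold lower in OSNs than in residual epithelium and C1qc 6.86-fold. Residual epithelium over brain was 0.72 in log2 for C1qa, 0.44 for C1qb and -0.09 for C1qc, all within 2-fold and spanning about as much as the SD of 0.78 between probe sets of 1 gene. The other C1qb probe sets had slightly less signal in residual epithelium than in brain. They read 51.2 in sorted OSNs, 467.2 in the residual epithelium and 570.2 in brain (1434366_x_at), and 45.3, 243.6 and 264.9 in the same order (1437726_x_at).

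The start regions of C1qb and C1qc are shown because the ratios of these neighbouring genes differed by less than the SD between probe sets of 1 gene in each of the 3 comparisons. Each runs from 250 bases before to 50 bases after the gene's start, 5′ to 3′, from RefSeq on GRCm38.p6, at chr4:136886151-136886450 (minus strand) and chr4:136892865-136893164 (minus strand). The windows of 7 of the 10 members were searched, all but those of Csf1r, C1qa and Tyrobp. Capitals mark GAGGAA on either strand, the core of the sites bound by the myeloid factor PU.1.
C1qb: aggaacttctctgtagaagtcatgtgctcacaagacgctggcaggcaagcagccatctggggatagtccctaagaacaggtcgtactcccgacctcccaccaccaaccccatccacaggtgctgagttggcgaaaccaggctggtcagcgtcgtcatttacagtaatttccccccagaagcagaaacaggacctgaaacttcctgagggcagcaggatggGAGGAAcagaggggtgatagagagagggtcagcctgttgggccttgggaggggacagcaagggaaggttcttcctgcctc
C1qc: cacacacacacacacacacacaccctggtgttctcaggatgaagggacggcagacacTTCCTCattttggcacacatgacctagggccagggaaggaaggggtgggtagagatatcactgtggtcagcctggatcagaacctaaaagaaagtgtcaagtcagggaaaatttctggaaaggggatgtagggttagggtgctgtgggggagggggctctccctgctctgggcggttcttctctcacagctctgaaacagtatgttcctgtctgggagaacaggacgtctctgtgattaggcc
C1qb holds 1 match, starting at position -30 relative to the gene's start, and C1qc holds 1 on the opposite strand, starting at -193. The match was found in 5 of the 7 members' windows (C1qb, C1qc, Cd68, Ctss and Laptm5) and in 28.3% of all 32851 windows of this length. A match is a description of the letters and not a bound site.

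Of 12 other complement genes counted, 4 were at least 2-fold lower in OSNs than in residual epithelium and none was higher (median -0.81), and 7 were at least 2-fold higher in residual epithelium than in brain and none was lower (median 1.35). Only 7 of the 12 reached the chip median in both OSNs and residual epithelium, and 5 in both residual epithelium and brain. For the others the filter fixed the sign, and in OSNs over residual epithelium these included Itgb2, Itgam and C5ar1. The genes lower in OSNs than in residual epithelium include those for the complement receptor chains Itgb2 (17.7-fold) and Itgam (at least 6.34-fold). The C5a receptor gene C5ar1 was lower too, with a log2 ratio of -2.25. Cd55 and Cd59a protect cells from complement. Cd55 stood at 0.63 by its brightest probe set, with probe sets from 0.63 to 1.28, and Cd59a at 0.28, with probe sets from -1.05 to 0.28. Calr, a chaperone that can also bind C1q, stood at 0.37, with probe sets from 0.37 to 0.79.

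Tyrobp (DAP12) and Fcer1g (the Fc receptor gamma chain) encode small membrane adaptors that carry activating signals from many receptors of myeloid cells, natural killer cells and mast cells. Tyrobp had a signal of 178.6 in sorted OSNs, 4085.7 in the residual epithelium and 411.6 in brain. It was 22.9-fold lower in OSNs than in residual epithelium, 2.30-fold lower than in brain, and 9.93-fold higher in residual epithelium than in brain. Fcer1g had 13.6 in sorted OSNs, 1999.6 in the residual epithelium and 268.9 in brain. It was at least 28.4-fold lower in OSNs than in residual epithelium and at least 3.83-fold lower than in brain, and 7.44-fold higher in residual epithelium than in brain. In OSNs over brain both adaptors could lose their 2-fold difference, Tyrobp with a log2 ratio of -0.96 under quantile normalization and Fcer1g with -0.88 with the floor at percentile 40. Brain held 10.1% of the residual signal for Tyrobp and 13.4% for Fcer1g, beside 54.6% for Csf1r.

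The list of receptors, kinases and other signalling genes around the adaptors also held inhibitory ones. Of its 23 counted genes, 18 were lower by 2-fold or more in OSNs than in residual epithelium and none was higher (median -2.34). Of the same number counted in residual epithelium over brain, 20 were higher and none was lower (median 2.15). Only 9 of the 23 reached the chip median in both OSNs and residual epithelium, and 7 in both residual epithelium and brain. For the others the filter fixed the sign, and the medians take 7 and 6 ratios at their bound. Clec4d, a C-type lectin receptor, and Fcgr3, an activating Fc receptor, were at least 8.78-fold and at least 8.75-fold lower in OSNs than in residual epithelium, and the kinase gene Btk at least 8.61-fold. Cd300lf and Trem1, receptors of myeloid cells, led in residual epithelium over brain, with log2 ratios of at least 3.20 and of 3.13. Fcgr2b, the inhibitory Fc receptor, had 494.2 in sorted OSNs, 704.2 in the residual epithelium and 658.7 in brain by its brightest probe set, with probe sets from -3.43 to -0.51 in OSNs over residual epithelium. Syk, the kinase that both adaptors recruit, was at 0.44, but its probe sets ranged from -4.12 to 0.44. Trem2, the microglial receptor that signals through Tyrobp, was named after its values were seen. It was not counted, with 22.7 in sorted OSNs, 23.8 in the residual epithelium and 100.8 in brain.

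Among the lysosomal members, Ctss encodes cathepsin S, a protease that prepares class II molecules for antigen presentation. It had a signal of 275.2 in sorted OSNs, 3869.0 in the residual epithelium and 1434.0 in brain. It was 14.1-fold lower in OSNs than in residual epithelium, 5.21-fold lower than in brain, and 2.70-fold higher in residual epithelium than in brain. Cd68, a membrane glycoprotein of late endosomes and lysosomes, had 87.3 in sorted OSNs, 540.2 in the residual epithelium and 195.8 in brain. It was 6.19-fold lower in OSNs than in residual epithelium and 2.76-fold higher in residual epithelium than in brain. In both, brain lay between the other populations.

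Lyz2 encodes lysozyme M, a bacteriolytic enzyme of macrophages, monocytes and neutrophils. It had a signal of 337.4 in sorted OSNs, 8755.5 in the residual epithelium and 387.7 in brain. It was 25.9-fold lower in OSNs than in residual epithelium and 22.6-fold higher in residual epithelium than in brain, while OSNs and brain were within 2-fold (log2 ratio -0.20). Lyz1 is a near-identical neighbour gene, and whether the probes tell them apart was not tested. One Lyz1 probe set (1436996_x_at) had 115.6 in sorted OSNs, 9902.5 in the residual epithelium and 124.1 in brain. A further one (1439426_x_at) had 15.4, 7994.7 and 10.2 in the same order, while the last (1450822_at) had 99.0, 113.5 and 99.1.

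The start regions of Fcer1g and Lyz2 are shown too, since these members had the 7.44-fold and 22.6-fold higher signals in residual epithelium than in brain given above. They come from the same RefSeq table and build, at chr1:171234300-171234599 (minus strand) and chr10:117282223-117282522 (minus strand). No letters are in capitals because none of the motifs searched was found in these windows.
Fcer1g: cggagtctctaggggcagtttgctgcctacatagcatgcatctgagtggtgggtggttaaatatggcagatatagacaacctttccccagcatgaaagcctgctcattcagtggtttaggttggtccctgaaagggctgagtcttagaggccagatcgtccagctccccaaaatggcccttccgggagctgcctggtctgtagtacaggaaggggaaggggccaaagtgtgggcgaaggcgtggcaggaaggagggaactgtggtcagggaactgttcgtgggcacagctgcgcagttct
Lyz2: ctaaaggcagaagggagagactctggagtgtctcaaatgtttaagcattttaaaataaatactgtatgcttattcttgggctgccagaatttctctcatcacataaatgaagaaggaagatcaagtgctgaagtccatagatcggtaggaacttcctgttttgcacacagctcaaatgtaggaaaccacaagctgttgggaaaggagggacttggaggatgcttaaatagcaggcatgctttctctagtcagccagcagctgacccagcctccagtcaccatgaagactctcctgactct
The other motifs searched on both strands were TTGCNNAA, a form of the C/EBP site, found in 10.8% of all windows, and the composite site of ETS and IRF factors, found in 2.72%. Each was found in 1 of the 7 members' windows, in both cases that of Cd68, where the composite match overlaps a GAGGAA match on the same strand. The absence of a match says only that these letters are not in the window. Cd68 and Ctss, 2.76-fold and 2.70-fold higher in residual epithelium than in brain, hold 2 GAGGAA matches each. Whether matches go with the ratios was not tested.

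Laptm5, a lysosomal membrane protein of blood cells, differed between its probe sets. Its brightest probe set (1426025_s_at) had 297.7 in sorted OSNs, 800.2 in the residual epithelium and 543.3 in brain, 2.69-fold lower in OSNs than in residual epithelium. A second on chip A (1436905_x_at) had 9.6 in sorted OSNs, 1864.1 in the residual epithelium and 117.2 in brain, at least 26.5-fold lower in OSNs and 15.9-fold higher in residual epithelium than in brain. The third on chip A (1417721_s_at) had 22.0, 254.6 and 145.2 in the same order. On chip B, probe set 1459841_x_at had 221.6 in sorted OSNs, 510.9 in the residual epithelium and 209.3 in brain, and 1447742_at had 607.8, 411.4 and 326.9 in the same order, the only member probe set with more signal in OSNs than in residual epithelium. Thus 4 of the probe sets had their highest signal in residual epithelium and 1 in OSNs, and log2 ratios of OSNs over residual epithelium ran from -4.73 to 0.56. Over all members, 17 of 18 probe sets were at least 2-fold lower in OSNs than in residual epithelium, beside 17.9% of the 20913 counted probe sets with 1 symbol.

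**Figure D2:**
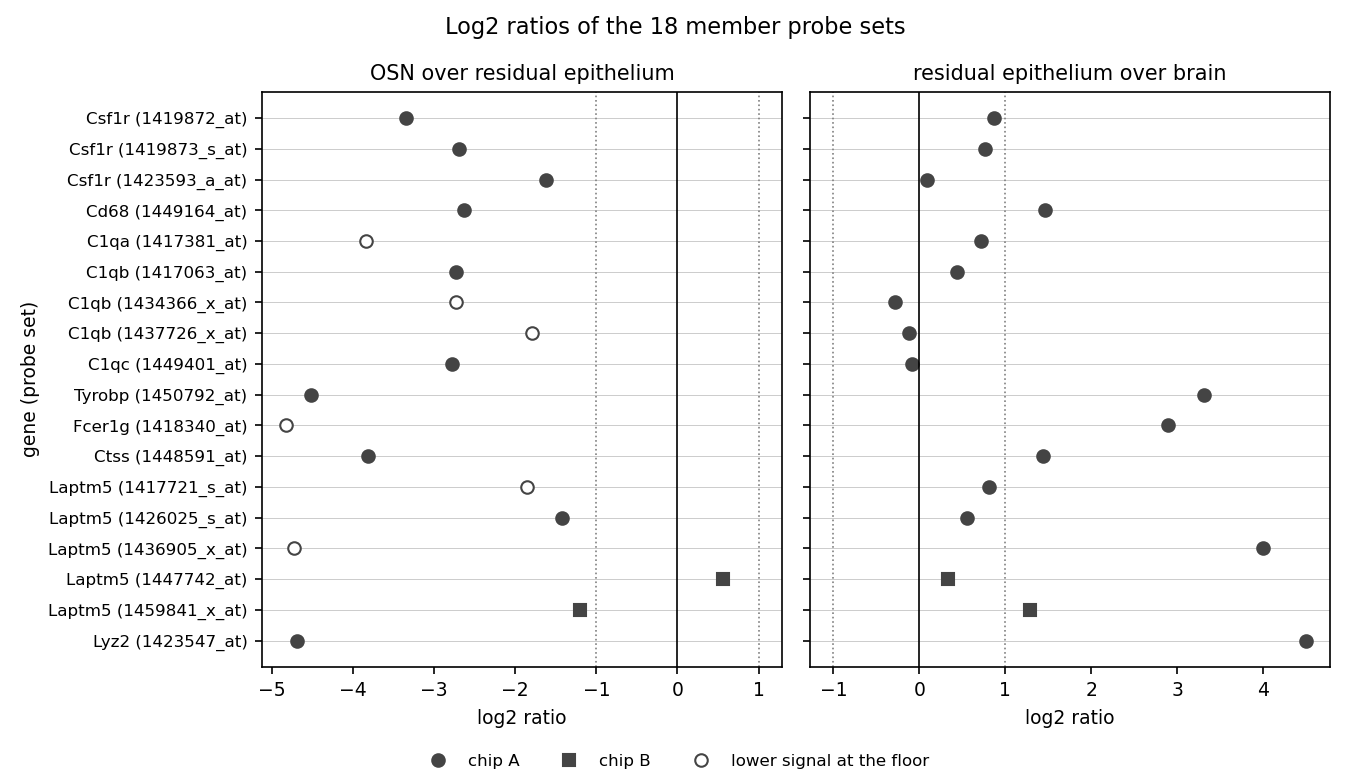
Log2 ratio of each of the 18 member probe sets, OSN over residual epithelium on the left and residual epithelium over brain on the right. Circles are chip A, squares chip B, open symbols have their lower signal at the floor, and dotted lines mark 2-fold. All but Laptm5 1447742_at lie left of -1 in the left panel, and Laptm5 spreads from -4.73 to 0.56.

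Of 22 lysosomal genes counted, 9 were at least 2-fold lower in OSNs than in residual epithelium, with 2 higher (median -0.62), and 7 were higher in residual epithelium than in brain with 1 lower (median 0.24). Of the 22, 19 reached the chip median in both OSNs and residual epithelium, and 21 in both residual epithelium and brain. Ctsc and Ctsh did not reach it in OSNs, so the filter fixed their sign there. Ctsc and Ctsh, cathepsins abundant in blood cells, were 15.3-fold and 10.8-fold lower in OSNs than in residual epithelium by their brightest probe sets, with Ctsc probe sets from -3.94 to -1.37 in log2. Npc2, a cholesterol carrier, stood at -2.42 in log2. Lgmn, a lysosomal protease known from macrophages and kidney, was 3.05-fold higher in OSNs and Ctsa 2.44-fold higher, and Ctsb was within 2-fold at 0.94. Probe sets of Ctsa ranged from -0.05 to 1.29 and those of Ctsb from -0.23 to 1.96. Cst3, the cathepsin inhibitor cystatin C, had its highest signal in brain, with 1369.0 in sorted OSNs, 4002.2 in the residual epithelium and 11844.6 in brain.

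The members differed widely from each other in residual epithelium over brain. Lyz2 (4.50), Tyrobp (3.31) and Fcer1g (2.89) stood above Cd68 (1.46) and Ctss (1.43), and then came Csf1r (0.87), C1qa (0.72), Laptm5 (0.56), C1qb (0.44) and C1qc (-0.09). Neighbours in this order differed by less than the SD of 0.78 between probe sets of a gene, except at the steps from Lyz2 to Tyrobp and from Fcer1g to Cd68. The places of members with several probe sets depend on the probe set used. Log2 ratios ran from 0.33 to 3.99 for Laptm5, from -0.29 to 0.44 for C1qb and from 0.09 to 0.87 for Csf1r. Lyz2 lay 4.59 log2 units above C1qc. In OSNs over residual epithelium the ratios ran from -4.83 for Fcer1g, a bound, to -1.43 for Laptm5. That span is thus a lower limit and cannot be ranked against the one in residual epithelium over brain. In OSNs over residual epithelium Fcer1g, Lyz2 and Tyrobp lay lowest, followed by C1qa, Ctss, Csf1r, C1qc, C1qb and Cd68. The steps from Tyrobp to C1qa and from Cd68 to Laptm5 exceeded the SD of 0.62. C1qa is a bound, however, and with the floor at percentile 10 it stood at -5.88, below Tyrobp at -4.52. This SD and that of 0.78 are for single probe sets and not for a difference between genes. The order of bounds, which concern C1qa and Fcer1g, depends on the floor.

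**Figure D3:**
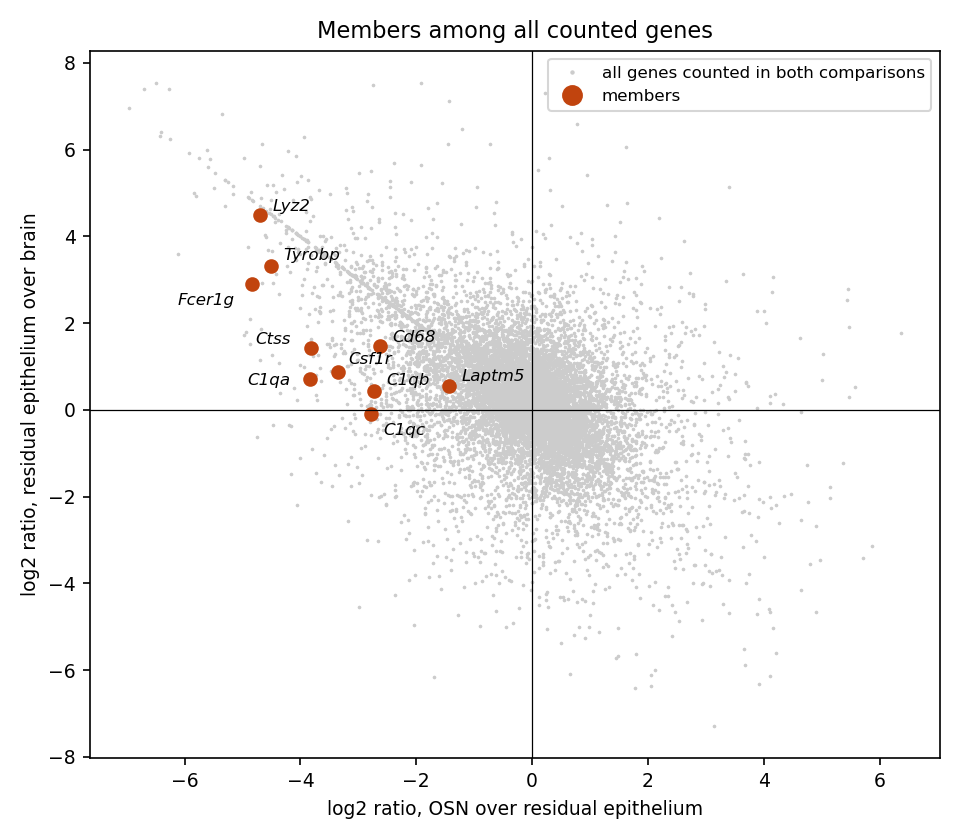
Log2 ratio of OSN over residual epithelium (x) against log2 ratio of residual epithelium over brain (y) for the 10 members (brightest probe set) and for the 11855 genes counted in both comparisons (grey). Both axes use the residual array, so genes low in OSNs and brain alike fall on a diagonal; Lyz2 lies there, and the C1q genes lie near 0 on the y axis.

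Markers of other cell types, in lists chosen with earlier results of these data known, were described in the same way. In these lists too, a gene below the chip median in 1 of the populations compared was counted only through the other, which fixed its sign, and medians take genes at the floor at their bound. Of the other macrophage markers, 8 of 12 counted genes were lower by 2-fold or more in OSNs than in residual epithelium and none was higher (median -1.99), and 10 of 12 were higher in residual epithelium than in brain with none lower (median 1.78). Only 2 of the 12 reached the chip median in OSNs as well, and 5 in brain as well. Mpeg1, a pore-forming protein of phagocytes, was at least 25.4-fold lower in OSNs than in residual epithelium, Ly86 stood at -3.24 in log2 and Fcgr1 at -0.88. Msr1, a scavenger receptor, stood at -0.84. Cd14, a receptor for bacterial lipopolysaccharide, had 217.2 in sorted OSNs, 1558.5 in the residual epithelium and 206.4 in brain.

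Of 9 microglia markers counted, 6 were at least 2-fold lower in OSNs than in residual epithelium and none was higher (median -1.88), and in residual epithelium over brain 3 were higher and 1 was lower (median 0.32). Of the 9, only 2 reached the chip median in OSNs as well, but 8 did so in both residual epithelium and brain. P2ry12, a purinergic receptor used to mark microglia, had 51.2 in sorted OSNs, 518.8 in the residual epithelium and 760.4 in brain. Cx3cr1, the fractalkine receptor, had 126.1 in sorted OSNs, 720.1 in the residual epithelium and 575.3 in brain. Tmem119, another microglia marker, had 162.2, 279.5 and 577.8 in the same order and was the gene at least 2-fold lower in residual epithelium than in brain (log2 ratio -1.05). Siglech and Sall1 stood at -0.55 and -0.87 in OSNs over residual epithelium. Selplg, a selectin ligand also found on other leukocytes, stood at -3.11, and led in residual epithelium over brain with 1.33, followed by Fcrls with 1.13.

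Several members are also used by other blood cells, and markers of those cells were measured beside them. The 15 monocyte and neutrophil markers on the arrays summed to 2439.8 in sorted OSNs, 89481.9 in the residual epithelium and 1853 in brain. Lyz1 is among them, with 9902.5 in the residual epithelium, and whether its probes also read the member Lyz2 was not tested. All were read on chip A except Ccr2, on chip B. All 14 counted were at least 2-fold lower in OSNs than in residual epithelium (median -4.03) and at least 2-fold higher in residual epithelium than in brain (median 4.36). Of these 14, only 3 reached the chip median in OSNs as well and 2 in brain as well. Camp, Lcn2, Elane, Prtn3 and Cxcr2 were at the floor in OSNs, and all of these but Prtn3 were at it in brain. All but Camp were named after their values were seen. S100a8, a calcium-binding protein abundant in neutrophils, had 182.9 in sorted OSNs, 16474.9 in the residual epithelium and 88.7 in brain. The part of these cells in the signals of Lyz2, Tyrobp, Fcer1g and Laptm5 was not tested.

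Pan-leukocyte genes apart from Laptm5 were at least 2-fold lower in OSNs than in residual epithelium for 16 of 16 (median -4.47) and higher in residual epithelium than in brain for 16 of 16 (median 3.98). Of the 16, 4 reached the chip median in OSNs as well and 6 in brain as well. Ptprc, which encodes the leukocyte surface protein CD45, had 33.8 in sorted OSNs, 3930.4 in the residual epithelium and 128.8 in brain. Srgn, a proteoglycan of granules, was at least 69.5-fold lower in OSNs than in residual epithelium, and Cybb, a subunit of the phagocyte oxidase, had 219.4 in sorted OSNs, 8955.5 in the residual epithelium and 55.1 in brain. Dendritic cell and antigen presentation markers were at least 2-fold lower in OSNs than in residual epithelium for 6 of 8 (median -2.52) and higher in residual epithelium than in brain for 6 of 9 with 1 lower (median 2.02). H2-Aa, a class II chain, was 48.8-fold lower in OSNs by its brightest probe set, with probe sets from -5.61 to -2.80 in log2. Zbtb46, a transcription factor of dendritic cells, had more signal in OSNs, with a log2 ratio of OSNs over residual epithelium of 0.86 and probe sets from 0.79 to 1.81. H2-DMb2, a class II chaperone chain, stood at 0.03, with probe sets from 0.03 to 0.93. Flt3, a cytokine receptor, stood at -1.23 in residual epithelium over brain and Cd83, a marker of mature dendritic cells, at -0.47. The 5 counted genes of the B and T cell list were all B lineage genes (Cd79a, Cd79b, Ms4a1, Vpreb1 and Igll1), and no T cell gene was counted. These 5 and the 3 erythroid markers counted were below the chip median in both OSNs and brain. The filter thus fixed that all were higher in residual epithelium. The sizes were bounds for 3 of the 5 and for all 3 erythroid genes. The 5 B lineage genes were lower in OSNs than in residual epithelium by a median of at least 4.21 log2 units, with Vpreb1 at the floor in OSNs. They were higher in residual epithelium than in brain by at least 4.19. For the erythroid genes both medians were at least 5.59. Mast cell and basophil markers were lower in OSNs than in residual epithelium for 3 of 4 (median -2.15) and higher in residual epithelium than in brain for 2 of 4 (median 1.07). Sums over these lists are given in the order OSNs, residual epithelium, brain. They were 4000.3, 24299.9 and 3251.2 for the dendritic cell and antigen presentation list. They were 641.3, 7148.5 and 539 for B and T cells, 746, 1814.1 and 1116.6 for mast cells and basophils, and 150.1, 8147.1 and 171 for erythroid cells. The sums of the dendritic list and of the mast cell and basophil list add signals of both chips. In the dendritic list's residual sum, H2-Aa, read on chip B, had 13628.3 and Cd74, read on chip A, had 4614.3. Whether these signals came from dendritic cells was not tested.

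**Figure D4:**
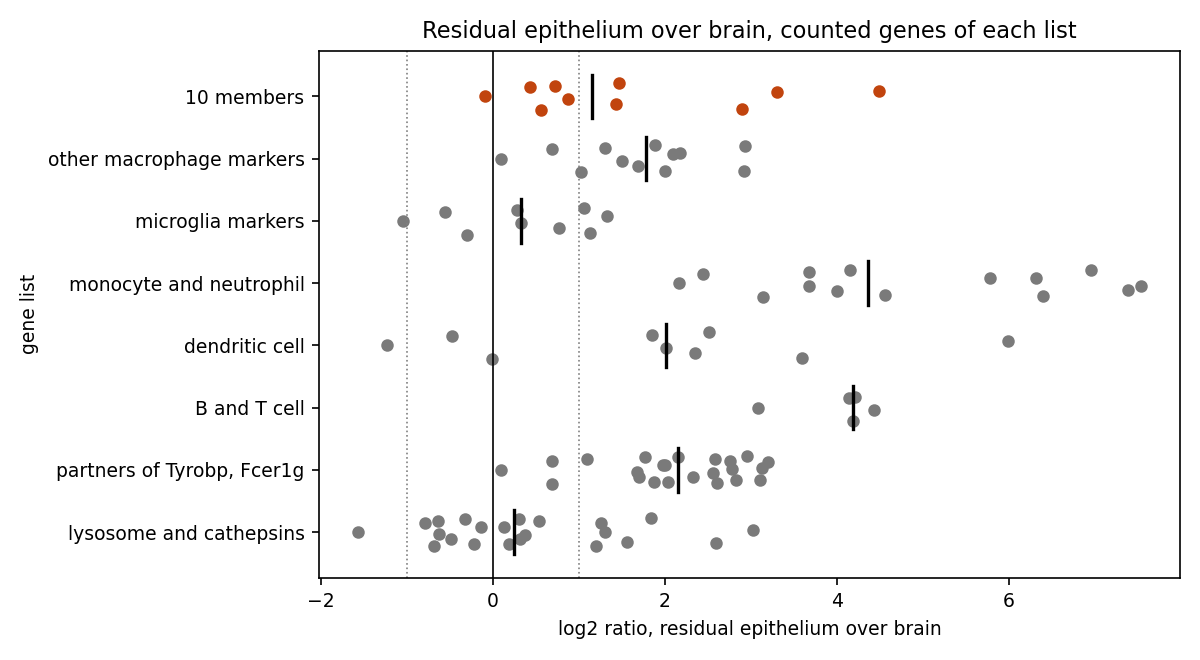
Log2 ratio of residual epithelium over brain for the counted genes of 8 lists, 1 point per gene (vertical offsets only separate points), with the list's median as a black bar and dotted lines at 2-fold. The 10 members run from -0.09 to 4.50, microglia markers centre on 0.32 and monocyte and neutrophil markers on 4.36.

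All 8 olfactory sensory neuron markers were higher in OSNs than in residual epithelium (median 5.40), and they were higher in residual epithelium than in brain for 4 of 8 with 1 lower (median 1.06). The list of sustentacular and basal cell markers was mixed, with 5 of 8 at least 2-fold lower in OSNs than in residual epithelium and none at least 2-fold higher (median -2.11). Those lower were Krt5, Krt14 and Krt15, keratins of basal cells, Trp63, a transcription factor of basal cells, and Notch2. Cyp2g1, a cytochrome P450 of the olfactory mucosa, had more signal in OSNs, with 3821.8 in sorted OSNs, 2657.3 in the residual epithelium and 102.7 in brain. Cyp1a2 stood at 0.34 and Ermn at -0.59 in OSNs over residual epithelium. In residual epithelium over brain 7 of 8 were higher and 1, Ermn, was lower (median 2.48). Brain glia markers were lower in residual epithelium than in brain for 7 of 7 (median -3.85), and in OSNs over residual epithelium 1 of 4 was higher and 1 lower (median 0.35). Slc1a2, a glutamate transporter of astrocytes, stood at -4.87 in residual epithelium over brain by its brightest probe set, with probe sets from -4.87 to -2.09. Mbp, a myelin protein, stood at -5.82, but its 8 probe sets ran from -7.61 to 0.90, so they did not share a direction.

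The genes most like the members in pattern were sought among 13305 other genes whose highest signal reached the chip median. The measure was the Euclidean distance between log2 signals, each centred over the 3 populations, with 1 array per population. Signals under the floor were raised to it first, so a distance of a gene at the floor in OSNs says only that it is low there. Closest to the members' median pattern were D16Ertd472e (0.13 log2 units), Zfp341 (0.14), Sat1 (0.17), Swap70 (0.19), Gsto1 (0.20), B2m (0.21) and Crispld2 (0.22), together with Gadd45g, which was at the floor in OSNs. With so few points many genes can lie close. Sertad4 was nearest to Csf1r (0.02), Gnai2 to C1qb (0.05), Csf2rb to Lyz2 (0.09) and Dtymk to Laptm5 (0.02). Of the genes given with a distance, D16Ertd472e, Zfp341, Swap70, Crispld2, Sertad4 and Csf2rb were read on chip B, while the members were read on chip A. Their distances are smaller in size than the mean shift of -0.42 between chips in residual epithelium over brain. How near these genes are to the members across chips is therefore not settled. The genes nearest to Cd68 (Itgam), Tyrobp (Pglyrp1), C1qc (Ppp1r14a) and Ctss (St8sia4) were at the floor in OSNs, and C1qa and Fcer1g, nearest to Cers6 and Cd93, were at it themselves, so no distance is given for these. Among the members themselves the closest pairs were Csf1r with Ctss (0.42), Csf1r with C1qb (0.45) and C1qb with C1qc (0.45), and the farthest was C1qc with Lyz2 (3.26).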

How the data were processed

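RNA of 3 populations was measured on Affymetrix mouse expression arrays 430A (chip A) and 430B (chip B), 1 array each. The authors deposited probe set intensities on a linear scale, 22690 on chip A and 22575 on chip B, 64 of each controls. MAS5 is named for 5 of the 6 arrays (not for brain on chip A), per the submitters' processing notes. The sources used here state no background correction, scaling target or detection call. The mean between percentiles 2 and 98 was 499.6 to 499.9 on all arrays, so each had been scaled alike, and amounts per cell cannot be compared. The number of arrays limits the precision.

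Symbols came from the platform annotation, updated through Entrez identifiers to the GRCm38.p6 RefSeq table. Each gene took its brightest probe set, ranked within a chip by mean log2 signal. Named genes were all probe sets of the members, the 3 highest and 3 lowest of each list in OSNs over residual epithelium, the 2 highest and 2 lowest in residual epithelium over brain, and the nearest patterns. Members and lists were chosen with earlier results of these data known. The 10 cell type lists and 5 pathway lists were described by counts and medians. The code was tested on simulated data. Tables were computed in pandas 2.3.3 and numpy 2.4.6 under Python 3.11.15, and plots drawn in matplotlib 3.10.9.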

Additional observations from a re-analysis of the deposited data

How the results depend on the processing

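No paired analysis was possible because each population had 1 array per chip, and leaving out a replicate was not possible for the same reason. Of the repeats of the counts and medians, 58 stayed close to the reported value and 5 moved. The members' median log2 ratio of OSNs over residual epithelium moved to -3.06 with the floor at percentile 40 and to -3.30 with the median of all probe sets of a gene, and that of OSNs over brain to -1.94 with that setting too. With the signal filter at percentile 75, 4 members were at least 2-fold lower in OSNs than in brain, all 4 that were still counted (21.7% of the 8057 genes counted). At a 3-fold threshold 3 members were higher in residual epithelium than in brain (12.9% of the 12916 genes counted). Without probe sets ending in _x_at or _s_at, Laptm5 was represented by chip B and its log2 ratio of OSNs over residual epithelium reversed to 0.56. Its ratio of OSNs over brain changed sign there (0.89) and with the median over probe sets (0.01), as did C1qb in residual epithelium over brain with that median (-0.12). Bounds followed the floor: Fcer1g in OSNs over residual epithelium ran from -6.88 (percentile 10) to -3.77 (percentile 40), and at percentile 40 Cd68 stood at -1.88. In OSNs over brain Fcer1g at percentile 40 (-0.88) and Tyrobp under quantile normalization (-0.96) lost their 2-fold difference, which left 6 members lower each time, and scaling on the probe sets of both chips brought Laptm5 past it (-1.02). No member's ratio changed sign under centring, quantile normalization or scaling on the probe sets of both chips. That last scaling moved the median of all genes by -0.28 in OSNs over brain and by -0.26 in residual epithelium over brain. The higher share of all calls was then 35.3% in place of 46.7%, and 42.7% in place of 54.3%. Among all genes, those lower in OSNs than in residual epithelium numbered 1385 of 7844 (17.7%) with the filter at percentile 75, in place of 2292 of 12254 (18.7%), so the count fell with the number counted. At 3-fold 1441 were lower and 790 in place of 1570 higher there, 1246 in place of 2287 were higher in OSNs than in brain, and in residual epithelium over brain 1661 in place of 2902 were higher and 1586 in place of 2446 lower. The numbers counted were the same at 3-fold. Signals near the floor limit what can be said of C1qa and Fcer1g in OSNs.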
